A study of Mus musculus with 20 samples.

Results

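The genes described here are 10 genes of the circadian clock, read in the livers of 20 mice and out of 18193 genes that the arrays measured. They are Npas2, Arntl, Clock, Per1, Per2, Per3, Nr1d1, Nr1d2, Dbp and Tef. The list was chosen by name and selected on an earlier result of these data, the log2 differences between the CL and NC groups, where Npas2 is among the largest rises. Every comparison of these genes with the chow-fed NC mice is therefore a description and carries no test. Each gene was read from the brightest of the probe sets that name it alone, and all 10 were found. Male C57BL/6J mice entered the study at 7 weeks of age and stayed on their diet for 12 weeks, with 5 mice in each group. The CL + AX and CL + VE groups received the CL diet with 0.02% astaxanthin or 0.02% vitamin E. The CL group received that diet alone, in which fat supplied 60% of the calories, with sodium cholate at 0.5% and cholesterol at 1.25%, and which induces nonalcoholic steatohepatitis. The NC group received CRF-1 chow. All mice lived under 12 h of light and 12 h of darkness and fasted for 2 h before the liver was taken. The clock hour of collection, and whether it was the same in the 4 groups, are not given in the sources used here, so the part that the time of day has in any difference below was not tested.

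The circadian clock of a mammalian cell is a loop of transcription. BMAL1, the product of Arntl, pairs with CLOCK or with NPAS2 and activates genes through the E-box. Among these are the Per genes, whose proteins repress the pair, and Nr1d1 and Nr1d2, whose products REV-ERBα and REV-ERBβ compete with ROR receptors and repress Arntl, Npas2 and Clock. The PAR bZIP factors DBP and TEF carry the rhythm to output genes through the D-box. In mouse liver the transcripts of the loop rise and fall over the day, those of Arntl and Npas2 roughly opposite to those of Dbp and the Per genes, so that a single harvest catches 1 point of each cycle.

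Letters of the E-box, the D-box or the site of ROR receptors were found in promoter windows of Per1, Per3, Tef and Arntl. None were found in those of Npas2, Clock, Nr1d1, Nr1d2 and Dbp. RefSeq windows of 250 bases before to 50 bases after a transcription start (GRCm38.p6) were matched for 9 of the 10 genes, in 14 windows, and Per2 had none. The E-box CACGTG, searched on both strands, was found in 3 of the 14 windows, of Per1 and Tef, and in 7.15% of all 32851 windows. The D-box TTATGNAA was found in 2 windows, of Per1 and Per3, and in 3.38% of all windows. The ROR element core TNGGTCA was found in 4 windows, of Arntl, Per3 and Tef, and in 11.0% of all windows, and some of these matches overlap a CCAAT box read on the other strand. The 2 Arntl windows overlap and share matches, yet each is counted. A narrower form, TAGGTCA, was searched after these matches had been seen and was found in 1 window, of Arntl, and in 2.61% of all windows. The Per1 window (chr11:69098699-69098948, plus strand) has an E-box 166 bases before the start and a D-box 24 bases before it. The Per3 window (chr4:151044666-151044915, minus strand) has a pair of D-boxes, 205 and 158 bases before the start. The Tef window (chr15:81802423-81802672, plus strand) has an E-box 127 bases before the start, and the Arntl stretch (chr7:113207529-113207558, plus strand) lies just after a start. Capitals mark the E-box in Per1 and Tef, the D-box in Per1 and Per3, and TAGGTCA in Arntl.
Per1: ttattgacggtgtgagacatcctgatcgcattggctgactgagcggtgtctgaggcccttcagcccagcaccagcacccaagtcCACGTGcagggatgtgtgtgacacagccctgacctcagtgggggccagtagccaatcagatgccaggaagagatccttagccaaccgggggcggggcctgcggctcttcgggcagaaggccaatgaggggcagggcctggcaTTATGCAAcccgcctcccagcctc
Per3: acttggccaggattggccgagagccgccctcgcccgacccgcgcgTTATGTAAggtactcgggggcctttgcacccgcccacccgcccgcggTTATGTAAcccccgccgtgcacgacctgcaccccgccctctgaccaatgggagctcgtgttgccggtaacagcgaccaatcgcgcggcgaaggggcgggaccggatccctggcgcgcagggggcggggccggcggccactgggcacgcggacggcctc
Tef: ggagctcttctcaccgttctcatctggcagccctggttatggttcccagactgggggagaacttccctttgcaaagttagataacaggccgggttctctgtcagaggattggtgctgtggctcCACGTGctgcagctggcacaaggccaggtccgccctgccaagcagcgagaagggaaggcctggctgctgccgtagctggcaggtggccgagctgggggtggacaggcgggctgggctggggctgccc
Arntl: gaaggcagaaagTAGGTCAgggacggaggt
A match of this kind is a description of the letters in 1 window, and their absence from another window says nothing about a factor.

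Unless another setting is named, signals of single genes below are log2 of the array signal after quantile normalization, and a step of 1 is a doubling. Array medians, summed marker signals and signals as deposited are on the linear scale. Quantile normalization gives every array the same distribution. The array medians before that step were 26.4 to 27.8 in CL + AX, 17.1 to 20.8 in CL + VE, 19.4 to 24.9 in CL and 13.1 to 18.9 in NC. The log2 ratio of the 3′ to the 5′ probe sets of Gapdh, a measure of RNA integrity and labelling, was −0.26 to −0.09 in CL and −0.18 to 0.11 in the supplemented groups, against 0.38 to 0.78 in NC. That of Actb was 1.01 to 1.25 in CL and 1.07 to 1.51 in the supplemented groups, against 1.54 to 1.95 in NC, so that both ratios set the NC arrays apart in every comparison with chow. The summed signal of 8 hepatocyte markers was 82960 to 90110 in CL and 82630 to 90920 in NC. That of 8 macrophage markers was 7160 to 16350 in CL and 1516 to 3872 in NC, that of 8 stellate cell and fibroblast markers was 5351 to 9858 in CL and 2191 to 3390 in NC, and no marker was at 0 in any group. Of these lists, 8 of 8 macrophage markers and 6 of 8 stellate cell and fibroblast markers passed the test upward in CL against NC. The hepatocyte markers other than Hnf4a (12.03) had mean log2 signals of 13.12 to 13.90, near the top of the arrays. There, quantile normalization leaves little room for a difference, so their near-equal sum does not show equal hepatocyte content. Of the 8 hepatocyte markers, 0 passed upward and 1 downward, which was Hnf4a (−0.29, adjusted p = 0.0306). In whole liver, fewer cells of a type and less RNA per cell cannot be told apart, and the part of these differences in the clock gene values was not tested.

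The clock genes of the mice on the CL diet, with or without a supplement, differed from those of the chow-fed mice in both directions. Npas2 and Arntl, which encode activators, were higher and Per1, Per2, Per3, Dbp and Tef were lower in CL than in NC, with no overlap between the 5 CL and the 5 NC mice in these 7 genes. The activator gene Clock and the repressor genes Nr1d1 and Nr1d2 overlapped. Of all genes, 8.07% did not overlap with CL above NC and 7.87% with CL below NC, and since this contrast was known when the 10 genes were listed, nothing is read from the 2 higher and 5 lower members. Between CL + AX and NC, 2 members were higher and 6 lower without overlap, beside 8.29% and 8.60% of all genes. Between CL + VE and NC, 1 was higher and 6 lower, beside 7.01% and 5.24%. As a mean over all probe sets of a gene, the members without overlap numbered 9 in place of 15 over these 2 comparisons. These 3 comparisons share the NC mice.

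**Figure D1:**
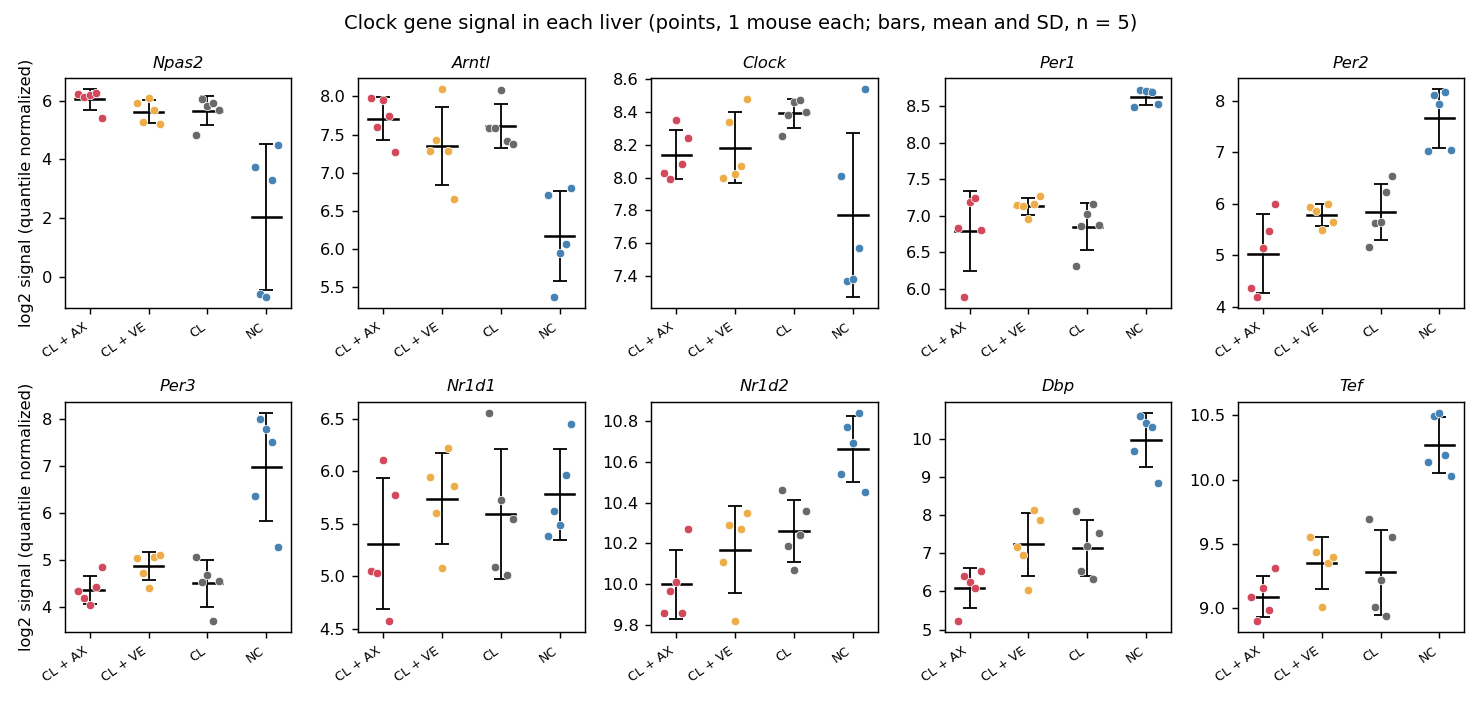
The log2 signal (quantile normalized) of each of the 10 clock genes in each liver, in panels by gene, with the groups CL + AX, CL + VE, CL and NC from left to right, 1 point per mouse, and bars for the mean and SD (n = 5). The vertical axes differ between panels and do not start at 0. The NC points lie below those of the other groups for Npas2 and above them for Per1, Per2, Per3, Dbp and Tef.

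Npas2, which encodes a partner of BMAL1 that can stand in for CLOCK, had the largest difference of the 10 genes when each was read from its brightest probe set with no offset. Its log2 signal was 6.22, 6.12, 6.20, 6.27 and 5.42 in the CL + AX mice, 5.91, 5.26, 6.07, 5.68 and 5.20 in the CL + VE mice and 4.84, 6.06, 5.81, 5.92 and 5.68 in the CL mice, against 3.73, −0.55, −0.68, 3.30 and 4.50 in the NC mice. Every mouse on the CL diet lay above every chow-fed mouse, and the chow-fed mice spread over more than 5 log2 units, with replicates 2 and 3 far below the other 3. The difference from NC was 3.98 in CL + AX, 3.56 in CL + VE and 3.60 in CL (SE 0.71 each), and the CL difference ranked 13th from the top among the 18193 genes. The size of this difference rests on dim signals. As deposited, before any scaling, the Npas2 signal ran from 26.8 to 78.5 (median 63.3) in CL and from 0.599 to 20.9 (median 6.42) in NC. With 16 added to every signal before the logarithm the CL difference was 1.48, and as a mean over both Npas2 probe sets it was 2.14, each smaller in size than that of Dbp under the same setting (−2.69 and −2.64).

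Arntl, which encodes BMAL1, the partner that both NPAS2 and CLOCK need, was also higher on the CL diet. It had 7.98, 7.60, 7.95, 7.75 and 7.27 in the CL + AX mice, 7.28, 7.43, 8.10, 7.29 and 6.65 in the CL + VE mice and 7.58, 7.59, 8.09, 7.41 and 7.37 in the CL mice, against 6.70, 5.36, 5.94, 6.06 and 6.80 in the NC mice. Only CL + VE replicate 5 lay within the NC range. The differences from NC were 1.54 in CL + AX, 1.18 in CL + VE and 1.44 in CL (SE 0.25 each), the last a 2.70-fold difference, or 0.82 on the log2 scale as a mean over both Arntl probe sets. Clock moved less. Its log2 signal was 7.99 to 8.35 (median 8.08) in CL + AX, 8.00 to 8.48 (median 8.07) in CL + VE and 8.25 to 8.47 (median 8.40) in CL, against 7.37 to 8.54 (median 7.57) in NC. The Clock difference between CL and NC was 0.62 (SE 0.16), or 1.06 without scaling, and NC replicate 5, at 8.54, was the highest of all 20 mice.

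The 3 Per genes, which encode the repressors of the loop, were all lower on the CL diet. Per1 had 6.83, 5.88, 7.19, 7.25 and 6.81 in the CL + AX mice, 7.15, 7.14, 6.96, 7.16 and 7.27 in the CL + VE mice and 6.31, 6.86, 7.02, 7.16 and 6.88 in the CL mice, against 8.49, 8.72, 8.71, 8.70 and 8.53 in the NC mice. The NC values were the tightest of any member in that group (SD 0.11), and a gap of more than 1 log2 unit separated them from every mouse on the CL diet. The difference between CL and NC was −1.79 (SE 0.19), a 3.45-fold lower signal in CL, beside −1.84 for CL + AX and −1.50 for CL + VE.

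Per2, which is read from a dimmer probe set, had 4.36, 4.18, 5.14, 5.47 and 6.00 in the CL + AX mice, 5.94, 5.86, 5.49, 5.99 and 5.65 in the CL + VE mice and 5.16, 5.63, 5.65, 6.22 and 6.54 in the CL mice, against 7.03, 8.11, 7.94, 8.17 and 7.05 in the NC mice. NC replicates 1 and 5 lay about 1 log2 unit below the other NC mice and still above all 15 mice on the CL diet. The differences from NC were −2.63 in CL + AX, −1.88 in CL + VE and −1.82 in CL (SE 0.31 each). Per3 had 4.35, 4.20, 4.04, 4.42 and 4.85 in the CL + AX mice, 5.05, 4.73, 4.41, 5.06 and 5.11 in the CL + VE mice and 5.06, 4.54, 4.69, 3.70 and 4.56 in the CL mice, against 6.36, 8.00, 7.80, 7.52 and 5.27 in the NC mice. Of the 3 Per genes it had the widest spread in chow, where replicate 5, at 5.27, lay just above the highest CL + VE mouse, at 5.11. The CL difference was −2.48 (SE 0.38), the 43rd lowest of 18193 genes, beside −2.62 for CL + AX and −2.12 for CL + VE.

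Between CL and NC, the REV-ERB receptors had the smallest differences of the 10 genes, while Clock differed less than Nr1d2 from NC in both supplemented groups. Nr1d1 had a log2 signal of 4.57 to 6.11 (median 5.05) in CL + AX, 5.08 to 6.22 (median 5.86) in CL + VE and 5.01 to 6.56 (median 5.54) in CL, against 5.38 to 6.45 (median 5.62) in NC. All 4 groups overlapped, and the difference between CL and NC of −0.19 (SE 0.31) turned to 0.34 without scaling. Nr1d2, the brightest of the 10 genes, had 9.86 to 10.27 (median 9.97) in CL + AX, 9.82 to 10.35 (median 10.27) in CL + VE and 10.07 to 10.46 (median 10.24) in CL, against 10.45 to 10.84 (median 10.69) in NC. Its differences from NC were −0.66, −0.49 and −0.39 in CL + AX, CL + VE and CL (SE 0.10 each), and the highest CL mouse, at 10.46, was level with the lowest NC mouse, at 10.45. Both supplemented groups lay below NC without overlap in Nr1d2. Its CL difference was −0.13 without scaling, −0.63 with median centring and −0.13 as a mean over its probe sets.

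Dbp, which encodes a D-box activator of liver output genes and is a target of the E-box, had the largest difference below NC of the members. It had 5.22, 6.41, 6.24, 6.09 and 6.55 in the CL + AX mice, 7.17, 6.95, 6.05, 8.14 and 7.88 in the CL + VE mice and 8.12, 6.53, 7.19, 6.33 and 7.53 in the CL mice, against 9.69, 10.61, 10.43, 10.31 and 8.85 in the NC mice. The CL + AX mice were all below 7 and the NC mice all above 8.8. The differences from NC were −3.88 in CL + AX, −2.74 in CL + VE and −2.84 in CL (SE 0.39 each), so that the Dbp signal was 7.16-fold lower in CL than in NC, the 14th lowest difference of all genes. Tef, the related factor, had 8.90 to 9.31 (median 9.09) in CL + AX, 9.01 to 9.55 (median 9.40) in CL + VE and 8.94 to 9.69 (median 9.22) in CL, against 10.03 to 10.52 (median 10.19) in NC. Each of the 3 groups on the CL diet lay below NC without overlap, and the Tef difference between CL and NC was −0.99 (SE 0.13).

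**Figure D2:**
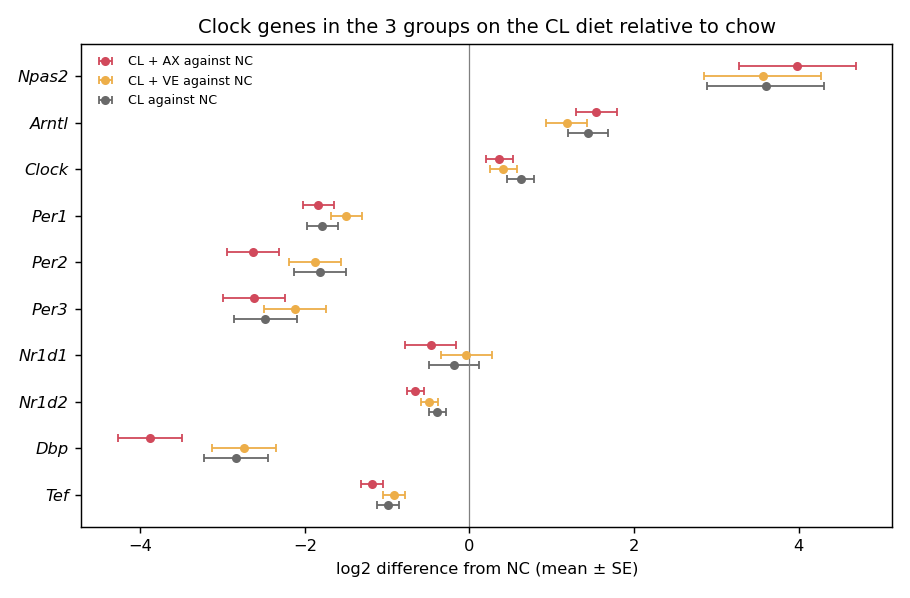
The difference from the NC mean (horizontal axis, log2 units) for each of the 10 clock genes (rows), with 1 point for CL + AX, CL + VE and CL from top to bottom within a row and bars for the SE of the fit (n = 5 per group). Npas2 lies between 3.56 and 3.98 on the right and Dbp between −3.88 and −2.74 on the left, and all 3 groups share the NC mice.

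Taking the 10 genes as a list, 3 differences between CL and NC were above 0 and 7 below. The median size of the differences, without sign, was 1.61 over the members and 0.36 over all 18193 genes, with 1.69 and 0.35 for CL + AX against NC and 1.34 and 0.32 for CL + VE against NC. The members were listed with the difference between CL and NC known, and the 3 comparisons share the NC mice. Nothing is therefore read from these sizes or from the steps to NC that follow. In 9 of the 10 genes, all but Nr1d1, the step between NC and the nearest of the other groups exceeded the SD pooled over the 4 groups. Among the 3 groups on the CL diet, 2 of 20 neighbouring steps did so, which were those from CL + AX up to CL + VE in Per2 and from CL + AX up to CL in Dbp. The 10 genes have 26 probe sets in all, and 15 of the 16 further ones had the same sign between CL and NC as the one used. The exception was a dim probe set of Nr1d2, at 0.14 (SE 0.52). For Per3, all 5 further probe sets lay between −2.23 and −1.31, and the further one of Dbp was at −2.44. For Npas2 and Arntl, the further probe sets lay at 0.68 (SE 0.83) and 0.21 (SE 0.41), and CL and NC overlapped in both, so their sign adds little.

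The chow-fed mice also differed among themselves in these genes. NC replicates 1 and 5 were the pair nearest to the CL side in 9 of the 10 genes, with Nr1d1 as the exception, which was seen in the values and then counted. Over all 18193 genes, the same pair was nearest to the CL side in 17.3%, and among the 21 list genes described below that passed the adjusted p it was so in 7 (33.3%). These 7 were Ciart, Usp2, Wee1, Gys2, Insig2, Pnpla2 and Lpin1, all from the lists of the clock and its liver targets. No temperature-, glucocorticoid- or fasting-responsive gene past the adjusted p was among them. NC replicate 5 had the highest Npas2, Arntl and Clock and the lowest Per3, Nr1d2, Dbp and Tef of its group, and NC replicate 1 had the lowest Per1 and Per2. The Gapdh ratio was 0.78 in NC replicate 1 and 0.38 in NC replicate 5, the highest and the lowest of the group, and the part of RNA quality in this order was not tested. Without NC replicate 5, the count of members whose CL and NC mice did not overlap was 9 in place of 7, since Clock and Nr1d2 joined, and without CL replicate 1 it was 8, with Nr1d2 added.

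**Figure D3:**
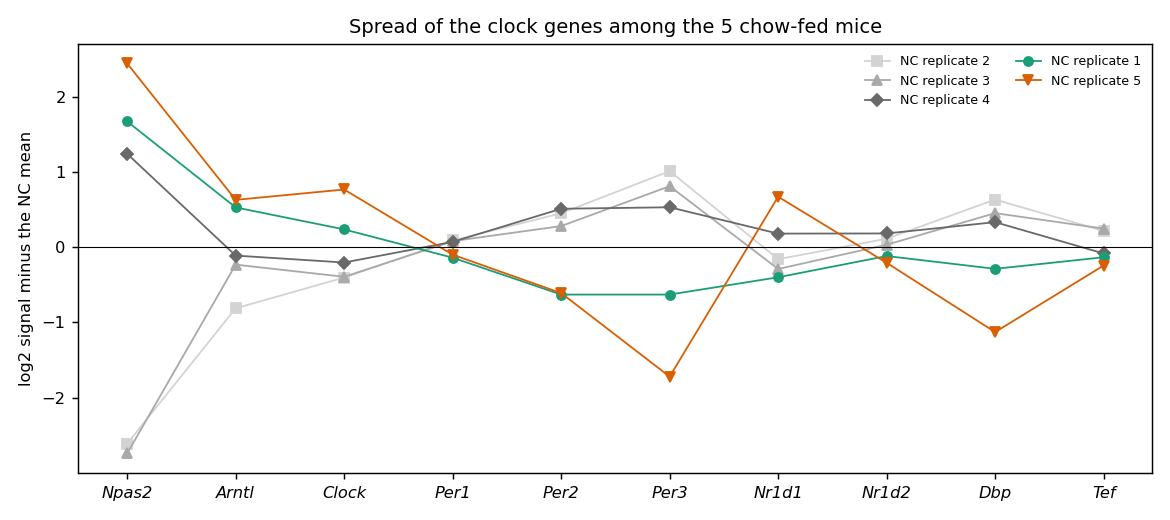
The log2 signal of each clock gene (horizontal axis) in each of the 5 NC mice, as the difference from the NC mean (vertical axis, log2 units), with 1 line per mouse and replicates 1 and 5 in colour. Replicate 5 is the highest line for Npas2, Arntl and Clock and the lowest for Per3 and Dbp.

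Within the other groups, single mice stood out in several members at once. CL replicate 1 had the highest Dbp (8.12), Tef (9.69), Per3 (5.06), Nr1d1 (6.56) and Nr1d2 (10.46) and the lowest Npas2 (4.84) of the CL mice, but also the lowest Per1 (6.31) and Per2 (5.16). In CL + VE, replicate 3 had the highest Npas2 (6.07) and Arntl (8.10) and the lowest Per1 (6.96), Per2 (5.49), Per3 (4.41), Nr1d1 (5.08), Nr1d2 (9.82), Dbp (6.05) and Tef (9.01). Some pairs of members varied together from mouse to mouse and others did not. Over the deviations of the 20 mice from their group means, Pearson's r was −0.78 between Npas2 and Per3, 0.74 between Dbp and Per3, 0.72 between Dbp and Tef and 0.66 between Npas2 and Arntl. In the 15 mice on the CL diet alone, these were −0.63, 0.70, 0.68 and 0.52. Clock and Per3 had −0.78 over 20 mice and −0.08 over the 15 mice on the CL diet, so that the value over all mice rests on the chow-fed mice. Npas2 and Clock had 0.66 over 20 mice and −0.31 over those 15. Per1 and Per2 had 0.61 and 0.62, while Per1 and Per3 had 0.03 and −0.20. Pairs near 0 over the 20 mice included Npas2 and Per1 (−0.05), Npas2 and Nr1d1 (0.06) and Per2 and Nr1d1 (−0.03). These values are descriptions, since both genes of a pair come from the same array and share its RNA and its normalization.

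Among the 11397 genes at or above the median signal, those most like Npas2 in these deviations were Clpx, a chaperone subunit of a mitochondrial protease, at r = 0.91, Insig2, which holds the cholesterol sensor complex in the endoplasmic reticulum, at 0.88, Arfrp1, a GTPase of the Golgi, at 0.85, 4930579G24Rik at 0.84 and Tlcd4 at 0.81 over the 20 mice. Over the 15 mice on the CL diet, these were 0.58, 0.65, 0.34, 0.44 and 0.45, lower for each of the 5 genes. The SD of Npas2 was 2.48 in NC, against 0.36 in CL + AX, 0.39 in CL + VE and 0.48 in CL. The values over the 20 mice therefore rest mostly on the NC mice, where the Npas2 signal was dim. The genes most like Dbp were Spc24, a kinetochore protein, at 0.88, Hnmt, a histamine methyltransferase, at 0.78, Hsd3b3, a steroid dehydrogenase, at 0.77, Nr1d2 at 0.77 and Slc9a3r1, a scaffold protein of the cell membrane, at 0.76. Over the 15 mice on the CL diet, these were 0.90, 0.84, 0.74, 0.73 and 0.68, about as high as over all mice.

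The supplements were compared with the CL diet alone, and with each other, by limma's moderated test in 1 model of the 4 groups, with p-values adjusted over all 45037 probe sets. No member passed an adjusted p of 0.05 in any of the 3 comparisons, and neither did any of the 18193 genes (0% called in each direction). At an unadjusted p under 0.05 there were 3 of 10 members between CL + AX and CL, beside 8.04% of all genes, 0 between CL + VE and CL, beside 7.57%, and 2 between CL + AX and CL + VE, beside 10.2%. By the moderated test the 3 were Dbp, Per2 and Nr1d2, and the 2 were Dbp and Per2. The methods' own test on the same values gave counts of 3, 0 and 2 before and 0, 0 and 0 after adjustment. Equal counts do not mean the same members, since that test uses only the spread of the groups compared. This spread was wide for Per2 in CL + AX (SD 0.76) and narrow for Clock (SD 0.15 in CL + AX and 0.09 in CL). No member separated its groups without overlap in any of these comparisons, where 0.951% of all genes did so upward and 1.02% downward between CL + AX and CL, 1.03% and 0.561% between CL + VE and CL, and 0.956% and 1.59% between CL + AX and CL + VE.

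Dbp had the largest of these differences. It averaged 6.10 ± 0.52 in CL + AX, 7.24 ± 0.83 in CL + VE and 7.14 ± 0.73 in CL (SD, n = 5 each). CL + AX lay below CL by a log2 difference of −1.04 (95% interval −1.84 to −0.23, adjusted p = 0.551) and below CL + VE by −1.14 (−1.94 to −0.33, adjusted p = 0.342), with the ranges overlapping in both. CL + VE and CL differed by 0.10 (−0.70 to 0.90, adjusted p = 0.980). Per2 averaged 5.03 ± 0.76 in CL + AX, 5.78 ± 0.21 in CL + VE and 5.84 ± 0.54 in CL. The CL + AX value differed by −0.81 from CL (−1.46 to −0.15, adjusted p = 0.575) and by −0.75 from CL + VE (−1.40 to −0.10, adjusted p = 0.481). CL + AX replicates 1 and 2, at 4.36 and 4.18, were the 2 lowest Per2 values of all 20 mice. Nr1d2 differed by −0.27 between CL + AX and CL (−0.48 to −0.05, adjusted p = 0.574).

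The other members gave smaller or less precise differences. Npas2 differed by 0.38 between CL + AX and CL (−1.09 to 1.85, adjusted p = 0.965) and by −0.04 between CL + VE and CL (−1.51 to 1.43, adjusted p = 0.996), intervals widened by the spread of the NC mice, which the model pools with that of the other groups. For Arntl the interval was −0.41 to 0.61 between CL + AX and CL and −0.77 to 0.25 between CL + VE and CL. For Clock the intervals were −0.59 to 0.09 and −0.55 to 0.13. The NC mice widened those of Clock and Per3 in the same way. The SD of Clock was 0.50 in NC against 0.09 to 0.22 in the groups on the CL diet, and that of Per3 was 1.15 against 0.30 to 0.50. Per1 differed by −0.05 between CL + AX and CL and by 0.29 between CL + VE and CL, Per3 by −0.14 and 0.36, Nr1d1 by −0.28 and 0.16 and Tef by −0.19 and 0.07, with adjusted p from 0.780 to 0.986, and several of these signs turned with the scaling. Over the 10 members, the median size of the differences was 0.26 between CL + AX and CL, 0.13 between CL + VE and CL and 0.39 between CL + AX and CL + VE, beside 0.17, 0.17 and 0.18 over all genes. The first and the second of these comparisons share the CL mice, and the first and the third share the CL + AX mice.

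**Figure D4:**
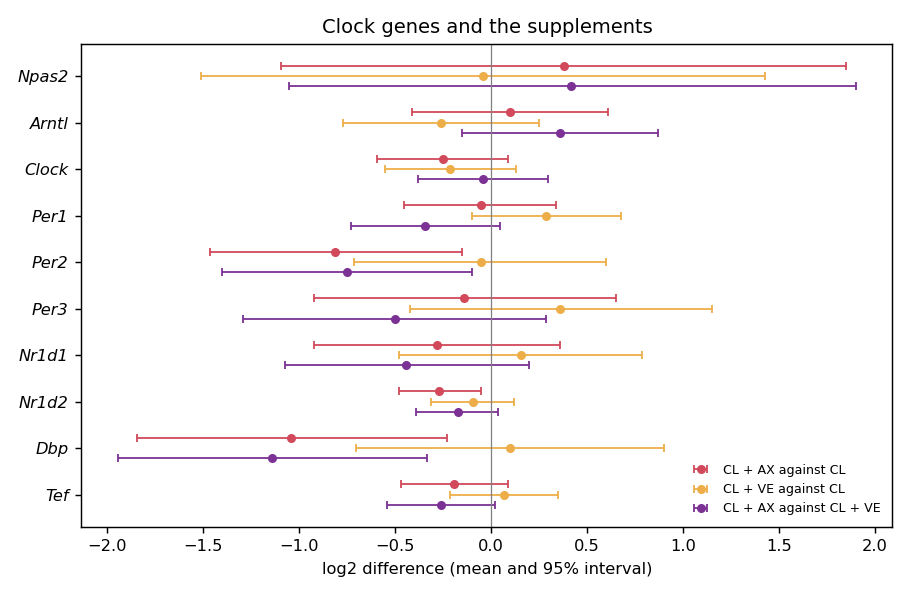
The log2 difference (horizontal axis) with its 95% interval for each clock gene (rows) between CL + AX and CL, between CL + VE and CL, and between CL + AX and CL + VE, from top to bottom within a row (n = 5 mice per group). The intervals of Dbp and Per2 lie below 0 where CL + AX is compared with CL or with CL + VE, and no difference passed the adjusted p.

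The genes around these 10 were read from further lists of the clock and of its liver targets, where CL was tested against NC. All lists below were written with earlier results of these data known, so their counts and p-values are not independent support. Of all genes, 12.0% passed the adjusted p upward and 11.3% downward in this comparison. Among the other core clock genes, 0 of 10 measured genes rose and 2 fell. Ciart, which encodes the repressor CHRONO of the CLOCK and BMAL1 pair, fell by 4.51 (SE 0.75, adjusted p = 0.000181). Its log2 signal was 0.80, 3.63, 1.67, 4.05 and 1.23 in the CL mice, against 5.66, 7.06, 7.34, 8.09 and 5.76 in the NC mice, so the groups did not overlap, but the CL values are near the dim end of the arrays and leave the size uncertain. Hlf, the PAR bZIP relative of Dbp and Tef, fell by 0.71 (SE 0.14, adjusted p = 0.00108), and was at −0.25 without scaling (adjusted p = 0.365). Cry2, a partner of the Per proteins, differed by −0.63 (adjusted p = 0.148) and by −0.91 without NC replicate 5 (adjusted p = 0.0162). Cry1 differed by 0.31 (adjusted p = 0.305), and Nfil3, the repressor at the D-box, by 0.26 (adjusted p = 0.301), or by 0.42 without NC replicate 2 (adjusted p = 0.0324). The median over this list was −0.52, and over all genes −0.04.

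Of a list of kinases, ubiquitin enzymes and other regulators of clock proteins, the last being Nono and Timeless, 1 of 10 measured genes rose and 1 fell. Usp2, a deubiquitinase with rhythmic transcripts in mouse liver, fell by 2.14 (SE 0.25, adjusted p = 3.63e-06). Its log2 signal was 6.71, 7.41, 7.07, 7.16 and 7.55 in the CL mice and 8.90, 9.51, 9.86, 9.87 and 8.49 in the NC mice, and NC replicates 5 and 1 were the lowest of their group. Fbxw7, a substrate receptor of a ubiquitin ligase, rose by 0.37 (SE 0.09, adjusted p = 0.00548), and was at 0.14 as a mean over its probe sets (adjusted p = 0.278). Csnk1d, a kinase of the Per proteins, differed by −0.12 (adjusted p = 0.536) and its relative Csnk1e by 0.33 (adjusted p = 0.131). Timeless differed by −0.68 (adjusted p = 0.120) and Nono by −0.16 (adjusted p = 0.147).

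Rhythmic liver genes and targets of clock factors had 1 rise and 6 falls among 12 measured genes. Noct, which encodes nocturnin and peaks at night in mouse liver, fell by 2.27 (SE 0.29, adjusted p = 9.52e-06). Lpin1, a phosphatidate phosphatase, fell by 1.94 (SE 0.43, adjusted p = 0.00254). Wee1, a cell cycle kinase with E-boxes, fell by 1.38 (SE 0.26, adjusted p = 0.000526), and was at −0.71 as a mean over its probe sets (adjusted p = 0.114). Gys2, the liver glycogen synthase, fell by 1.08 (SE 0.17, adjusted p = 0.000116). Pnpla2, a triglyceride lipase, fell by 0.86, and Nr1i3, a xenobiotic receptor, fell by 0.49, but Pnpla2 was at −0.13 as a mean over its probe sets (adjusted p = 0.894) and Nr1i3 at −0.16 without scaling (adjusted p = 0.476). Insig2 rose by 1.20 (SE 0.17, adjusted p = 2.56e-05). Over the 12 genes the median difference was −0.66. Without NC replicate 5 the test passed 10 of the 12, with Alas1 at −1.01, Elovl3 at 1.15 and Avpr1a at 0.72 added. Elovl3 also passed without NC replicate 1 (1.09) and Alas1 without CL replicate 3 (−0.97). In the chow-fed mice, Gys2 had 10.85 in replicate 1 and 10.54 in replicate 5, against 11.61 to 11.67 in the other 3, while in Noct, Nr1i3 and Hlf replicates 1 and 5 were not the pair nearest to CL.

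**Figure D5:**
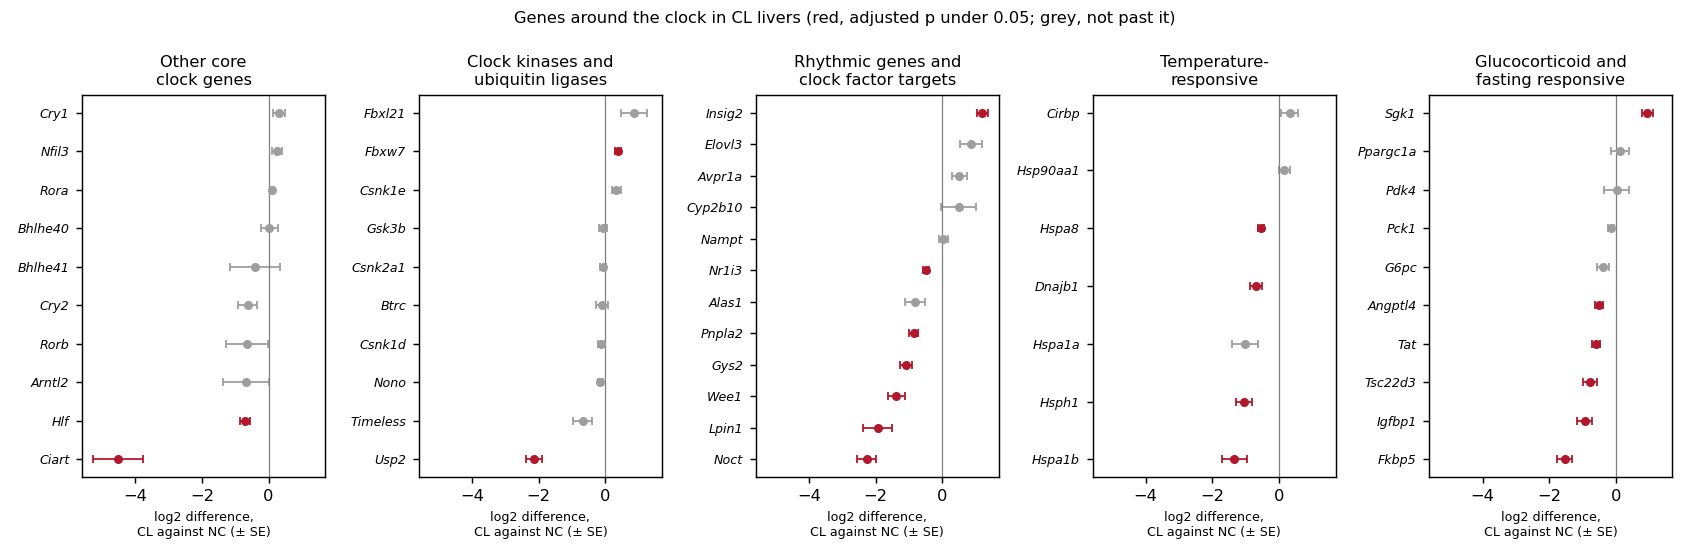
The log2 difference between CL and NC (horizontal axis) with its SE for each measured gene (rows) of 5 lists, in panels by list, with red for an adjusted p under 0.05 and grey for the rest. The largest falls are those of Ciart (−4.51), Noct (−2.27) and Usp2 (−2.14), and the largest rise past the threshold is that of Insig2 (1.20).

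Signals that follow body temperature or hormones were read beside the clock genes, since both can shift peripheral clocks in mice. Of 7 measured temperature-responsive genes, 4 fell in CL and 0 rose. The chaperone genes Hspa1b, Hsph1, Dnajb1 and Hspa8 fell by 1.34, 1.05, 0.69 and 0.54 (adjusted p from 0.000161 to 0.0137), and Cirbp, which rises in the cold, differed by 0.32 (adjusted p = 0.443). Hsph1 and Dnajb1 did not pass without scaling (−0.72 and −0.33, adjusted p = 0.0845 and 0.354), nor Dnajb1 and Hspa8 as a mean over probe sets (−0.40 and −0.34, adjusted p = 0.0998 and 0.0807). Hspa1a, at −1.03, passed without NC replicate 4 (adjusted p = 0.0358) or without CL + AX replicate 5 (adjusted p = 0.0396), but not with all mice (adjusted p = 0.0779). Of 10 measured genes that respond to glucocorticoids or fasting, 1 rose and 5 fell. Fkbp5, a co-chaperone of the glucocorticoid receptor, fell by 1.53 (SE 0.22, adjusted p = 3.95e-05), with 7.77 to 8.52 in the CL mice and 9.03 to 10.06 in the NC mice. Tsc22d3, Tat, Igfbp1 and Angptl4 fell by 0.78, 0.60, 0.94 and 0.51, and Sgk1, a kinase induced by glucocorticoids, rose by 0.94 (SE 0.17, adjusted p = 0.000407). Of these, Tsc22d3 and Angptl4 did not pass without scaling (adjusted p = 0.103 and 0.262) or as a mean over probe sets (adjusted p = 0.183 and 0.190). The gluconeogenic genes Pck1 and G6pc differed by −0.15 (adjusted p = 0.296) and −0.38 (adjusted p = 0.146). The methods' t-test with the same adjustment kept Noct, Pnpla2 and Nr1i3 of the 7 rhythmic genes, Hspa8 of the 4 chaperone genes and Fkbp5, Sgk1 and Tat of the 6 hormone-responsive genes past the threshold.

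In the comparisons with the supplements, 0 genes of these 5 lists passed the adjusted p. Noct came nearest. Its log2 signal was 6.21, 6.22, 6.94, 7.50 and 6.45 in the CL + AX mice, against 8.34, 8.33, 7.92, 8.69 and 8.13 in the CL + VE mice, without overlap, and the difference was −1.62 (SE 0.29, adjusted p = 0.0759). Between CL + AX and CL, Noct differed by −1.11 (adjusted p = 0.321), and CL replicate 1, at 6.67, lay among the CL + AX values. Rora lay below CL without overlap in CL + AX (−0.20, adjusted p = 0.496) and in CL + VE (−0.17, adjusted p = 0.540). Nampt did so in CL + VE (−0.30, adjusted p = 0.610). Of all genes, 1.02% lay below CL without overlap in CL + AX and 0.561% in CL + VE. Usp2 differed by −0.81 between CL + AX and CL + VE (adjusted p = 0.279), with 6.30 to 7.12 in CL + AX and 7.16 to 8.32 in CL + VE. In the other direction, Nfil3 differed by 0.62 (adjusted p = 0.201), with 8.99 to 9.47 in CL + AX and 8.26 to 8.78 in CL + VE, and Igfbp1 by 0.75 (adjusted p = 0.286), with 12.01 to 12.76 in CL + AX and 11.25 to 11.77 in CL + VE.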

How the data were processed

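Liver RNA of 20 male mice, 5 per group, was hybridized to Affymetrix Mouse Genome 430 2.0 arrays, 1 array per mouse. The authors computed the deposited intensity values with MAS5, 1 linear signal per probe set, and analysed them in the Subio platform (version 1.19). The deposited signals (0.0140 to 18760) differed in overall level between arrays, so log2 signals were quantile normalized. Without the 64 controls there were 45037 probe sets, of which 34945 name 1 gene in GEO's platform annotation. A gene was read from the brightest of these. Groups came from the diet in the labels. All 4 groups entered 1 model in limma 3.58.1 (R 4.3.3, trended prior, 16 residual degrees of freedom) with the Benjamini-Hochberg adjustment and a threshold of 0.05, and the fit was tested on simulated data. The number of arrays limits the precision.

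The members and gene lists were chosen with earlier results of these data known. Named are all members, list genes past the adjusted p or with the 3 smallest p, and the 5 genes most like Npas2 and the 5 most like Dbp. Csnk1d is outside this rule and was given beside its relative Csnk1e. List genes with no probe set of their own were not analysed here. Lymphocyte, endothelial and bile duct marker lists were also read, with 4 of 7, 5 of 6 and 1 of 4 genes higher and 0 lower in CL against NC. Alternatives were no scaling, median centring, trimmed-mean scaling over the middle 96% of signals, an offset of 16, a filter at the median signal, the mean over probe sets, each mouse left out, the replicate number as a block and the methods' t-test.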

Additional observations from a re-analysis of the deposited data

Results flagged for a closer look

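In 31 genes (the 10 clock genes and the 21 list genes past the adjusted p) and 4 groups, each group's highest and lowest mouse was set against the others by Dixon's criterion at 95%. Of these 124 sets of 5 mice, 5 had a mouse that lay apart, and chance gives about 1 in 20. Npas2 was 5.42 in CL + AX replicate 5, against 6.12 to 6.27 in the other CL + AX mice. Usp2 was 8.32 in CL + VE replicate 5, against 7.16 to 7.48. Gys2 was 10.02 in CL replicate 1, against 10.20 to 10.26. Nr1i3 was 9.85 in CL + VE replicate 2, against 9.30 to 9.45. Hspa1b was 11.02 in NC replicate 4, against 12.14 to 12.38. The cause of these values was not tested.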

How the results depend on the processing

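No member was called between groups on the CL diet under any alternative run, but small differences turned sign. Between CL + AX and CL these were Npas2 (−0.15) and Tef (0.09) as a mean over probe sets, Arntl (−0.02) with median centring, Per1 (0.12) and Per3 (0.14) without scaling and Per3 (0.01) with trimmed-mean scaling. Without scaling, Nr1d1 (−0.10), Dbp (−0.15) and Tef (−0.16) turned between CL + VE and CL, and Clock (0.32), Per1 (0.08), Per3 (0.04), Nr1d1 (0.05), Nr1d2 (0.13) and Tef (0.08) between CL + AX and CL + VE, where Npas2 (0.00) and Tef (0.06) turned as a mean over probe sets. Leaving out each mouse gave −0.19 to 0.17 for Per1 and −0.34 to 0.00 for Per3 between CL + AX and CL, −0.25 to 0.07 for Npas2, −0.23 to 0.12 for Per2, −0.13 to 0.40 for Dbp and −0.02 to 0.17 for Tef between CL + VE and CL, and −0.10 to 0.03 for Clock between CL + AX and CL + VE. The cause was not tested. When signals were left unscaled, the median over all probe sets shifted by 0.40 between CL and NC, 0.63 between CL + AX and NC, 0.17 between CL + VE and NC, 0.19 between CL + AX and CL, −0.23 between CL + VE and CL and 0.43 between CL + AX and CL + VE. With median centring it shifted by −0.15 between CL + AX and NC and −0.12 between CL + AX and CL + VE, and with trimmed-mean scaling by 0.14 between CL + AX and NC.

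As a mean over probe sets, the members not overlapping with NC numbered 9 in place of 15 over CL + AX and CL + VE, the regulators of clock proteins called 1 in place of 2 and the temperature-responsive genes 2 in place of 4. Without scaling, 4 other core clock genes and 5 regulators of clock proteins were called. Only 1 other core clock gene was called with the filter at the median signal, which tests fewer genes. The methods' t-test called 1 other core clock gene, 3 of the rhythmic genes, 1 of the temperature-responsive and 3 of the hormone-responsive genes, in place of 2, 7, 4 and 6. The labels number replicates 1 to 5 in each group, and nothing says that a number marks a shared cage or day. Same-numbered mice deviated with r from −0.09 to 0.13 between CL and NC and from −0.29 to 0.12 between CL + VE and CL. Between CL + AX and CL, r ran from 0.03 to 0.38, and all 5 were above 0. The main fit did not pair the mice, since the labels do not, and whether the numbers pair CL with CL + AX mice was not tested. Per2 rose in number order in CL, from 5.16 in replicate 1 to 6.54 in replicate 5, and had the order 2, 1, 3, 4, 5 in CL + AX. From lowest to highest, Hspa1b and Dnajb1 had the replicate order 1, 3, 2, 4, 5 in both CL and CL + AX. In CL + VE and NC, the orders of Per2, Hspa1b and Dnajb1 were different. Whether a number marks an order of collection was not tested. With the replicate number as a block, the call of no member and no count changed by more than 1.5 times, with 0 members called between groups on the CL diet. Signals near the dim end, as those of Npas2 in NC and Ciart in CL, give a direction and an imprecise size.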
